A study of Mus musculus with 61 samples.

Results

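The 10 genes described here handle zinc in the mouse egg and embryo, and were taken from the gene tables by symbol. They are the ZIP importers Slc39a4, Slc39a6, Slc39a8 and Slc39a10, the ZnT transporters Slc30a1, Slc30a3 and Slc30a5, the metallothioneins Mt1 and Mt2, and the zinc-sensing factor Mtf1. All 10 were among the 24551 genes of a table of labelling windows and among the 22911 genes of a table of Klf17 genotypes, and all 10 passed the filter on low counts in both, Slc39a8 through a few libraries. Embryos came from in vitro fertilisation and were given 2 mM 4-thiouridine (4SU), a uridine analog that enters newly made RNA, for 6 h, and polyadenylated RNA was sequenced after alkylation (SLAM-seq). Unfertilised wild-type MII oocytes and wild-type embryos in 9 windows, named by hours post insemination (hpi), were all labelled with 4SU and gave 3 libraries each, 30 in all, with 10 oocytes or embryos per library. The windows were 0-6hpi, 6-12hpi, 12-18hpi, 18-24hpi, 24-30hpi, 30-36hpi, 48-54hpi, 70-76hpi and 90-96hpi. A second set of 11 libraries, from embryos labelled at the stage the design calls M2C, carried the genotypes Klf17 KO, Klf17 maternal KO (mKO), Klf17 paternal KO (pKO) and wild-type control (ctrl), with 3 libraries each but 2 for pKO. Klf17 encodes a Kruppel-like transcription factor. Labelling of the 0-6hpi embryos began with sperm and cumulus-oocyte complexes kept together in medium with 4SU. How each genotype was bred, the alleles, and whether libraries came from separate litters are not given in the sources used here, so a p-value reflects how much these libraries vary, which may be technical.

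Zinc entry and exit are split between protein families. ZIP (SLC39) proteins carry zinc into the cytosol from outside the cell or from organelles, and ZnT (SLC30) proteins carry it out of the cytosol, across the plasma membrane or into vesicles and the secretory pathway. Metallothioneins are small cysteine-rich proteins that bind zinc and other metals, and MTF1 is a transcription factor that binds metal response elements when zinc is plentiful and activates Mt1, Mt2 and Slc30a1. Mouse oocytes gather zinc while they mature, release a burst of it at fertilisation (the zinc spark), and need it to hold metaphase arrest.

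Mt1 and Mt2 lie side by side on chromosome 8 in the GRCm38.p6 annotation of RefSeq, Mt2 at chr8:94172618-94173567 and Mt1 at chr8:94178883-94180327, with 5.32 kb and no other annotated gene between them. The table of promoters from RefSeq (GRCm38.p6) held windows for 8 of the 10 genes, 11 windows in all, each with 250 bases before and 50 bases after a start site. The promoters of the 3 best known MTF1 targets among the genes are shown because Mt1 and Mt2 have the largest rises over MII oocytes among the 10 genes below and Slc30a1 moved with them for part of the time. Capitals mark the core of the metal response element, searched as TGCACNC and as TGCGCNC on both strands, where N is any base, with no overlapping matches in these windows. The windows are Mt1 at chr8:94178839-94179138, Mt2 at chr8:94172368-94172667 and Slc30a1 at chr1:191906531-191906830, all on the plus strand, and are written 5′ to 3′.
Mt1: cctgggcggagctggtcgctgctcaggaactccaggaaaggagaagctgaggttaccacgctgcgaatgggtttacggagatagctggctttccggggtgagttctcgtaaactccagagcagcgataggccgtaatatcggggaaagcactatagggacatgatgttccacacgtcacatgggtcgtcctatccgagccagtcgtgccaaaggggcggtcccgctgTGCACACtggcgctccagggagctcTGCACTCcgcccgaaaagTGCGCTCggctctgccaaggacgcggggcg
Mt2: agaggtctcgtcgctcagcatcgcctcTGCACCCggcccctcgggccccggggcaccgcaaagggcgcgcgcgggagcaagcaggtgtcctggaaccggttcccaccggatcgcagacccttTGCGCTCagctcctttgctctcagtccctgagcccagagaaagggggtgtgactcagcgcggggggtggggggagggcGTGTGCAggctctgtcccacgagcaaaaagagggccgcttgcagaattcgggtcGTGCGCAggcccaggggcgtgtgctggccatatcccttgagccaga
Slc30a1: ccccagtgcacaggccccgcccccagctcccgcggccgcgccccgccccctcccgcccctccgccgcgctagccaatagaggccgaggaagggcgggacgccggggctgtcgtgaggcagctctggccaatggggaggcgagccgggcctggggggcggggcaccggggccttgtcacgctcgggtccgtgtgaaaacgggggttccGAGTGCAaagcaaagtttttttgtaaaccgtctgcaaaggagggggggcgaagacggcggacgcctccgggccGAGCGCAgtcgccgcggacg
The Mt1 window held 3 cores, the Mt2 window 4 and the Slc30a1 window 2. Among all 32851 promoter windows of the same length, 25.7% held at least 1 core, 7.11% at least 2, 1.97% at least 3 and 0.517% at least 4. Of the 11 windows of these genes 6 held at least 1, with 1 core each in a window of Slc39a8, of Slc30a3 and of Slc30a5, and none was found in either Slc39a10 window or in the Mtf1 window. The start site of the Mt1 window lies downstream of the first base of the annotated gene. Bases on either side of each window were not searched, so the counts of cores hold for the windows only. A match is a description of the letters and not a measured site.

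Total gene counts ran from 7395193 to 13301570 per library in the windows and from 14080264 to 23018252 in the genotypes. Levels below are CPM (counts scaled to a common library total) from totals scaled with TMM factors, given per library and then as mean ± SD over the 3 libraries of a group. Levels of different genes are compared as RPKM, which divides CPM by the gene length in kilobases, with a ratio of counts also given for Mt1 and Mt2. A change was called where the p adjusted by Benjamini-Hochberg was under 0.05 in edgeR's quasi-likelihood test over all genes tested, 16234 in the windows and 16694 in the genotypes. The sources used here do not say if reads were parted by T-to-C conversion before counting, so a level may include RNA made before labelling, and a lower level can mean less RNA per cell or fewer cells that hold it. Because polyadenylated RNA was sequenced, a level may also differ with the poly(A) tails of a transcript, which were not measured. MII oocytes expressed 6 of 6 oocyte markers (Zp1, Zp2, Zp3, Gdf9, Bmp15, Oosp1), summed to 8764 to 8849 CPM, and the sum was 2.22 to 67.5 CPM at 90-96hpi. The summed level of 5 blastocyst markers was 4710.1 to 8296 CPM at 90-96hpi and 11.4 to 29.6 CPM in MII oocytes. The 7 cumulus cell markers summed to 1.10 to 2.97 CPM in MII oocytes, where 4 of them (Ptx3, Tnfaip6, Foxl2, Amhr2) were at 0. Their sum was 30.8 to 37.6 CPM at 30-36hpi and at most 44.2 CPM in any window library, at 48-54hpi.

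The make-up of the 10 transcripts turned over between MII oocytes and the last window. Of their summed RPKM, the 4 ZIP genes held 3.11 ± 1.03% at 90-96hpi and 85.1 ± 1.48% in MII oocytes. Mt1 and Mt2, the 2 metallothioneins among them, held 96.1 ± 1.11% at 90-96hpi and 1.64 ± 0.595% in MII oocytes. Mt4, a metallothionein outside the 10 genes that is described below, is not in these shares. In MII oocytes its RPKM was above that of Mt1 and Mt2 together. The 3 ZnT genes held 8.84 ± 1.15% in MII oocytes, 48.3 ± 2.82% at 12-18hpi and 0.563 ± 0.0531% at 90-96hpi. These are shares of the same sum, so a larger metallothionein level lowers the other shares. Summed RPKM of the ZIP genes was 277 ± 20.8 in MII oocytes and 93.2 ± 15.6 at 90-96hpi. It was 141 ± 13.1 at 30-36hpi and 171 ± 3.36 at 48-54hpi, with shares of 12.7 ± 1.36% and 10.5 ± 0.198%. ZIP transcripts made up most of the pool in the egg, ZnT transcripts the largest class at 12-18hpi, and metallothionein transcripts the largest from 18-24hpi on, at 45.7 ± 7.46% in that window and 79.6 ± 1.03% at 24-30hpi. In single libraries the metallothionein share was 38.4 to 53.3% at 18-24hpi, and did not overlap the 5.83 to 15.0% at 12-18hpi. As levels, Slc39a10 stood at 233 ± 21.1 RPKM in MII oocytes, Slc39a6 at 43.5 ± 0.647, Slc30a3 at 207 ± 31.4 at 12-18hpi, and Mt2 and Mt1 at 1732 ± 313 and 1248 ± 171 RPKM at 90-96hpi.

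**Figure D1:**
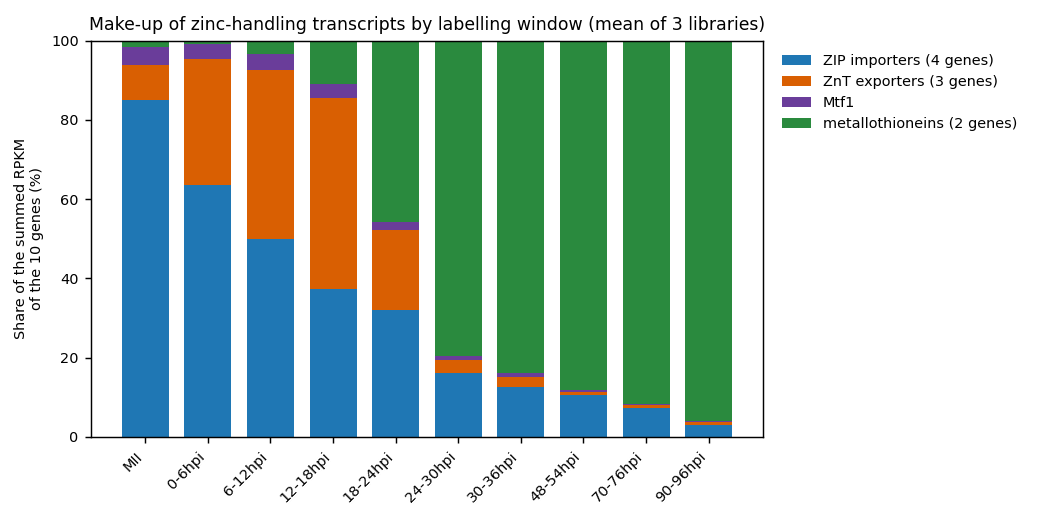
Share (%) of the summed RPKM of the 10 zinc genes held by each class, by group (x axis, MII oocytes to 90-96hpi). The classes are the ZIP importers, the ZnT transporters, Mtf1 and the metallothioneins Mt1 and Mt2, without Mt4. Each stacked bar is the mean of 3 libraries. The ZIP share is 85.1% in MII oocytes and 3.11% at 90-96hpi, the ZnT share is highest at 12-18hpi (48.3%), and the metallothionein share reaches 96.1% at 90-96hpi.

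Mt1 and Mt2, whose products buffer zinc, were close to absent from the egg and rose in steps up to 24-30hpi and again at 90-96hpi. Mt1 had 1.80, 3.30 and 0.994 CPM in MII oocytes, then 0.815, 3.09 and 0.919 CPM at 0-6hpi, and 2.68, 2.84 and 2.00 CPM at 6-12hpi. It had 2.29, 11.9 and 13.4 CPM at 12-18hpi, 82.2, 98.4 and 53.5 CPM at 18-24hpi, and 262, 268 and 292 CPM at 24-30hpi. All libraries from 18-24hpi on lay above all earlier ones, and the first 3 groups overlapped. Later levels were 374, 378 and 372 CPM at 30-36hpi, 612, 598 and 561 CPM at 48-54hpi, 617, 494 and 541 CPM at 70-76hpi, and 1154, 1519 and 1389 CPM at 90-96hpi. The windows 48-54hpi and 70-76hpi overlapped, and the 90-96hpi libraries lay above every other.

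Mt1 rose at 12-18hpi over 6-12hpi (by 1.88 as log2 fold change, SE 0.46, adjusted p = 0.00836), where replicate 1 had 19 counts, against 100 and 123 in the other libraries, and overlapped 6-12hpi. That call was lost without 6-12hpi replicate 3, 12-18hpi replicate 2 or 12-18hpi replicate 3 (adjusted p = 0.0584, 0.0708 and 0.0782). It rose further at 18-24hpi over 12-18hpi (3.07, SE 0.36, adjusted p = 5.03e-07), at 24-30hpi over 18-24hpi (1.81, SE 0.32, adjusted p = 6.2e-05) and at 90-96hpi over 70-76hpi (1.30, SE 0.31, adjusted p = 0.00158), each with no overlap between libraries. The rises at 30-36hpi over 24-30hpi (0.45, SE 0.30, adjusted p = 0.227) and 48-54hpi over 30-36hpi (0.66, SE 0.30, adjusted p = 0.0646) were not called, although the libraries did not overlap in either step; both passed in a fit of only the 2 groups and without the low-count filter. Over the whole course the log2 fold change of Mt1 was 9.37 (SE 0.47, adjusted p = 1.44e-14) at 90-96hpi over MII, and 10.0 without MII replicate 2.

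Mt2 moved off its floor 1 window before Mt1 was called. Mt2 had 1.17, 2.42 and 1.77 CPM in MII oocytes, then 0.181, 2.68 and 0 CPM at 0-6hpi, and 7.64, 5.49 and 5.15 CPM at 6-12hpi. All 3 libraries at 6-12hpi lay above all 6 earlier ones (log2 fold change 2.79, SE 0.56, adjusted p = 0.00178, against 0-6hpi), on 74, 58 and 49 counts at 6-12hpi and 2, 26 and 0 counts at 0-6hpi. The size of that step rests on those few counts, being 5.88 without 0-6hpi replicate 2 and 2.10 without 0-6hpi replicate 3, and a fit of only the 2 groups did not call it (adjusted p = 0.0519). Against MII oocytes the 6-12hpi level was also called (adjusted p = 0.00809). The lower level at 0-6hpi than in MII oocytes was not called (adjusted p = 0.345). It passed without the low-count filter and without 0-6hpi replicate 2 (adjusted p = 0.0314 and 0.000174), on the same few counts. Whether Mt2 and Mt1 differ in the 6-12hpi step was not tested.

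From 12-18hpi to 24-30hpi, Mt2 followed Mt1. Mt2 had 11.6, 25.3 and 24.4 CPM at 12-18hpi, 101, 129.8 and 92.8 CPM at 18-24hpi, and 275, 273 and 282 CPM at 24-30hpi. Each of those windows was called over the one before (log2 fold changes 1.75, 2.40 and 1.36, adjusted p = 0.0023, 3.07e-06 and 0.000703), with no overlap between libraries. Later values were 302, 315 and 283 CPM at 30-36hpi, 453, 479.7 and 443 CPM at 48-54hpi, 518, 382 and 443 CPM at 70-76hpi, and 709, 1022 and 925 CPM at 90-96hpi. The last step was called (0.98, SE 0.29, adjusted p = 0.00952) and the 3 before it were not, although the one at 48-54hpi (0.61, adjusted p = 0.0723) passed in a fit of only the 2 groups and without the low-count filter. Over MII oocytes the 90-96hpi log2 fold change of Mt2 was 8.95 (SE 0.45, adjusted p = 9.56e-15). The ratio of Mt1 to Mt2 per length was 0.166 to 0.244 at 6-12hpi and 0.0932 to 0.259 at 12-18hpi. It was 0.272 to 0.382 at 18-24hpi and 0.7003 to 0.767 at 90-96hpi. Per length, Mt2 was thus the more abundant of the pair in every library in which the ratio could be taken. That order rests on the deposited lengths, 1085 bases for Mt1 and 511 for Mt2. As counts, the ratio of Mt1 to Mt2 was 0.1979 to 0.811 from 6-12hpi to 18-24hpi, and 1.191 to 1.628 from 30-36hpi on. It was 0.9538 to 1.035 at 24-30hpi, 0.5625 to 1.545 in MII oocytes and 1.154 in 0-6hpi replicate 2.

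**Figure D2:**
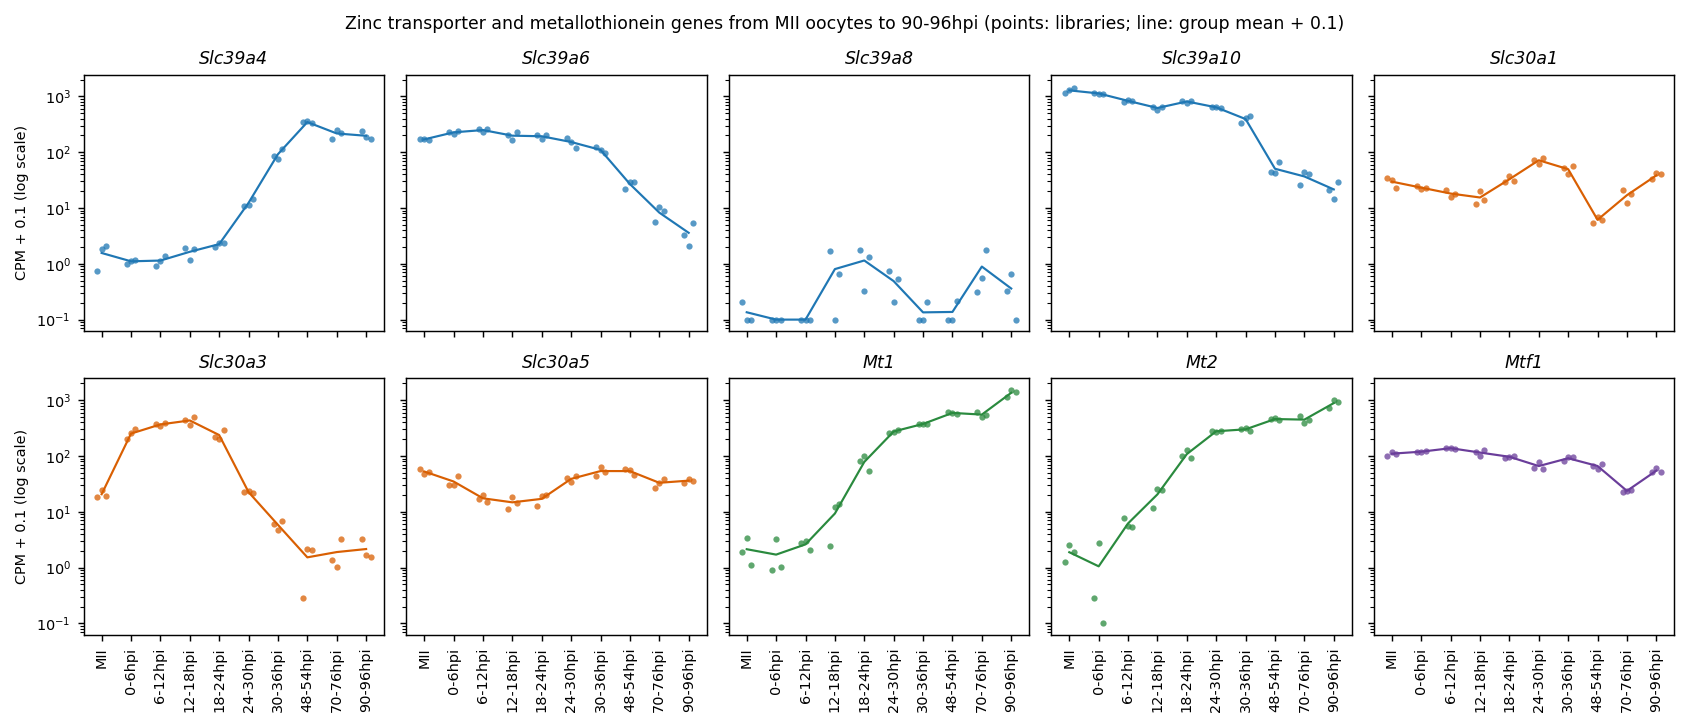
Level of each of the 10 genes (CPM + 0.1, log scale on the y axis) by group (x axis, MII oocytes to 90-96hpi); points are single libraries, 3 per group, and lines join group means. Mt1 and Mt2 climb from about 2 CPM in MII oocytes to 1354 and 885 CPM at 90-96hpi, Slc39a10 drops to 50.3 CPM at 48-54hpi, and Slc30a3 is high only from 0-6hpi to 18-24hpi.

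Of the ZIP genes, Slc39a10 and Slc39a6 were the abundant ones in MII oocytes. Their products form a plasma membrane complex that imports zinc, and SLC39A10 is among the importers known in the mouse oocyte. Slc39a10 had 1154, 1302 and 1383 CPM in MII oocytes, then 1170.0, 1092 and 1120.0 CPM at 0-6hpi, 799, 875 and 814 CPM at 6-12hpi, and 634, 568 and 652 CPM at 12-18hpi. No single step among these was called, although a fit of only the 2 groups called each of the 3 as a fall (adjusted p = 0.041, 8.25e-07 and 4.42e-05), and the one at 12-18hpi also passed with total count scaling and without the low-count filter (adjusted p = 0.0473 and 0.0257). The 12-18hpi level was lower than in MII oocytes (618 ± 44.4 against 1279.7 ± 116 CPM, log2 fold change -1.05, SE 0.17, adjusted p = 4.09e-06). At 18-24hpi the level was 839, 751 and 837 CPM, above every 12-18hpi library, a step that missed the threshold (log2 fold change 0.39, adjusted p = 0.0736) and passed it with DESeq2, with its size factors, with total count scaling, without the low-count filter and in a fit of only the 2 groups (adjusted p = 0.000323 to 0.0431).

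Slc39a10 fell after 24-30hpi. It had 640.4, 638 and 626 CPM at 24-30hpi, 334, 403 and 437 CPM at 30-36hpi, 44.4, 41.4 and 65.2 CPM at 48-54hpi, 25.3, 43.4 and 41.1 CPM at 70-76hpi, and 20.8, 14.3 and 29.0 CPM at 90-96hpi. It fell at 30-36hpi (by -0.70 as log2 fold change, SE 0.17, adjusted p = 0.0008) and by 2.96 on the log2 scale at 48-54hpi over 30-36hpi (SE 0.18, adjusted p = 1.33e-15). The smaller fall at 70-76hpi (-0.46, adjusted p = 0.0367) overlapped 48-54hpi and was lost with DESeq2, its size factors, total count scaling and a fit of only the 2 groups, and also on leaving out 48-54hpi replicate 3 or 70-76hpi replicate 1 (adjusted p up to 0.53). The fall at 90-96hpi over 70-76hpi was called (-0.78, adjusted p = 0.000939) although the libraries overlapped.

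Slc39a6 had 256, 230.3 and 260.4 CPM at 6-12hpi, the window with its highest mean, against 171, 169.6 and 166 CPM in MII oocytes. No step among the 6 groups from MII oocytes to 24-30hpi was called (means of 152 to 249 CPM). The libraries at 0-6hpi did lie above those of MII oocytes (0.42, adjusted p = 0.0799), a difference that passed under 2 alternatives, scaling by total count (adjusted p = 0.0147) and fitting these 2 groups alone (adjusted p = 0.00448), of which the 2-group kind of fit also called a fall at 12-18hpi over 6-12hpi (adjusted p = 0.0048). It had 123, 109 and 97.4 CPM at 30-36hpi, 21.4, 29.3 and 29.7 CPM at 48-54hpi, 5.56, 10.4 and 8.58 CPM at 70-76hpi and 3.21, 2.02 and 5.24 CPM at 90-96hpi. It fell at 48-54hpi (-2.04, SE 0.18, adjusted p = 9.49e-12), at 70-76hpi (-1.70, SE 0.20, adjusted p = 1.59e-08) and at 90-96hpi (-1.23, SE 0.25, adjusted p = 0.000137), with no overlap between consecutive windows. The first fall, at 30-36hpi (-0.47, adjusted p = 0.0236), overlapped 24-30hpi and was lost with DESeq2 size factors (adjusted p = 0.0533) and also on leaving out 24-30hpi replicate 1 or 2, or else 30-36hpi replicate 2 or 3 (with adjusted p = 0.0559 to 0.554). Slc39a10 and Slc39a6 had alike courses over the 10 groups (Pearson r = 0.971 of log2(mean CPM + 1), as a description), and Slc39a4 ran against both (r = -0.904 with Slc39a10 and -0.853 with Slc39a6).

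Slc39a4, the intestinal zinc importer whose human gene is mutated in acrodermatitis enteropathica, was near its floor up to 18-24hpi and then rose over 3 windows. It had 0.637 to 2.31 CPM in every library up to 18-24hpi, on 6 to 20 counts. It had 10.9, 11.3 and 14.6 CPM at 24-30hpi, 85.9, 76.5 and 113 CPM at 30-36hpi, and 349, 356 and 332 CPM at 48-54hpi. Each of these windows lay above all earlier libraries and was called over the one before (log2 fold changes 2.51, SE 0.25; 2.90, SE 0.19; 1.91, SE 0.18; adjusted p = 4.68e-10, 3.8e-14 and 1.58e-11). It had 173, 254 and 221 CPM at 70-76hpi, a fall (-0.68, SE 0.17, adjusted p = 0.00149), and 237, 183 and 169 CPM at 90-96hpi, which overlapped 70-76hpi and was not called. At 48-54hpi the summed level of the 4 ZIP genes was therefore mostly Slc39a4, at 155 ± 5.62 RPKM, with Slc39a10 at 9.16 ± 2.35 and Slc39a6 at 6.90 ± 1.21 RPKM.

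Slc39a8, which carries zinc, manganese and cadmium, was near the limit of detection. It had 0 counts in all 6 libraries at 0-6hpi and 6-12hpi, and its highest library had 16 counts, at 70-76hpi. At 12-18hpi it had 13, 0 and 5 counts, at 18-24hpi 14, 2 and 10 counts, and at 24-30hpi 7, 1 and 5 counts. The test called it higher at 12-18hpi over 6-12hpi (adjusted p = 0.0296) and at 70-76hpi over 48-54hpi (adjusted p = 0.0266), where it had 2, 5 and 16 counts, against 0, 0 and 1. It was also called higher at 12-18hpi over MII oocytes (adjusted p = 0.0382), which had 1, 0 and 0 counts, with overlap between libraries. No fold is given for such counts.

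The ZnT gene Slc30a3 was high in the windows from 0-6hpi to 18-24hpi. SLC30A3 (ZnT3) is best known in the mouse brain, where it loads zinc into synaptic vesicles. Slc30a3 had 18.5, 24.0 and 19.1 CPM in MII oocytes, then 198, 259 and 298 CPM at 0-6hpi, 369, 349 and 384 CPM at 6-12hpi, and 441, 363 and 494 CPM at 12-18hpi. It rose by 3.61 on the log2 scale at 0-6hpi over MII (SE 0.26, adjusted p = 1.03e-11), with no library of either group near the other, and the following steps up to 12-18hpi were not called. The 6-12hpi libraries lay above those of 0-6hpi (0.55, adjusted p = 0.17), a difference that passed without the low-count filter and in a fit of only the 2 groups (adjusted p = 0.013 and 0.000227). At 0-6hpi the embryos had been with sperm and cumulus cells, and the 5 sperm markers summed to 3.71 to 5.07 CPM there, against 0.994 to 2.97 CPM in MII oocytes, with Prm1, Tnp1 and Tnp2 at 0 in both groups. The 7 cumulus cell markers summed to 1.45 to 2.88 CPM at 0-6hpi, against 1.10 to 2.97 CPM in MII oocytes, with 1 of them at 0 in every library at 0-6hpi and 4 in MII oocytes. Their part in the Slc30a3 rise was not tested, nor was that of poly(A) tails.

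Slc30a3 then fell over 4 steps. It had 219, 197 and 294 CPM at 18-24hpi, 22.6, 23.2 and 21.4 CPM at 24-30hpi, 5.94, 4.56 and 6.69 CPM at 30-36hpi, and 0.187, 2.08 and 2.01 CPM at 48-54hpi. Each step was called as a fall (log2 fold changes -0.87, -3.40, -1.98 and -2.03, adjusted p = 0.00341, 7.37e-12, 9.17e-07 and 5.88e-05), with no overlap between consecutive windows. The last of these rests on 2, 20 and 18 counts at 48-54hpi, and was -2.69 without replicate 2 of that window and -2.68 without replicate 3. At 70-76hpi and 90-96hpi all libraries had 0.933 to 3.18 CPM. The 24-30hpi level was not called against that of MII oocytes (22.4 ± 0.882 and 20.5 ± 3.02 CPM, log2 fold change 0.13, SE 0.25, adjusted p = 0.678).

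Slc30a1 encodes the plasma membrane exporter and a textbook MTF1 target. Slc30a1 had 11.8, 20.3 and 13.9 CPM at 12-18hpi, against 34.8, 31.0 and 22.8 CPM in MII oocytes, a lower level (-0.95, SE 0.23, adjusted p = 0.000934). It had 29.3, 37.8 and 30.6 CPM at 18-24hpi and 73.7, 61.2 and 79.5 CPM at 24-30hpi, rises of 1.09 (SE 0.23, adjusted p = 0.000264) and 1.13 (SE 0.22, adjusted p = 7.34e-05) with no overlap. Mt1 and Mt2 were both called higher in 4 steps, and Slc30a1 was called higher in 3 of these, at 18-24hpi, 24-30hpi and 90-96hpi. Over the 10 groups as a whole, Slc30a1 had a Pearson r of 0.121 with Mt1 and 0.103 with Mt2, as a description. It had 52.3, 40.0 and 56.0 CPM at 30-36hpi and 5.34, 6.87 and 5.92 CPM at 48-54hpi, a fall of the last step by 3.03 on the log2 scale (SE 0.25, adjusted p = 7.29e-13), while Mt1 had 561 to 612 CPM at 48-54hpi. The fall at 30-36hpi (-0.53, adjusted p = 0.0409) was lost with DESeq2, its size factors, total count scaling and no low-count filter, and also on leaving out 24-30hpi replicate 1 or 3, or else 30-36hpi replicate 1 or 2 (with adjusted p = 0.0553 to 0.276). It then rose at 70-76hpi, to 20.5, 12.0 and 18.0 CPM (1.48, SE 0.25, adjusted p = 6.21e-06), and at 90-96hpi, to 33.0, 41.8 and 40.0 CPM (1.18, SE 0.23, adjusted p = 6.61e-05).

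Slc30a5, which with SLC30A6 loads zinc into enzymes of the secretory pathway, dipped around fertilisation and had returned at 30-36hpi. It had 59.0, 47.9 and 51.0 CPM in MII oocytes, then 29.6, 30.7 and 44.0 CPM at 0-6hpi, 17.0, 20.1 and 14.8 CPM at 6-12hpi and 11.1, 18.6 and 14.3 CPM at 12-18hpi. The level at 12-18hpi was lower than in MII oocytes by 1.84 on the log2 scale (SE 0.23, adjusted p = 2.09e-08), with the fall at 6-12hpi over 0-6hpi called (17.3 ± 2.67 and 34.8 ± 8.03 CPM, SE of the log2 fold change 0.22, adjusted p = 0.00204). The fall at 0-6hpi (-0.60, adjusted p = 0.0425) was lost with total count scaling, with no low-count filter, and also on leaving out MII replicate 1 or 3, or else 0-6hpi replicate 1 or 2 (with adjusted p = 0.0593 to 0.163). It rose to 40.0, 33.4 and 42.9 CPM at 24-30hpi, against 12.5, 18.8 and 19.5 CPM at 18-24hpi (1.19, SE 0.22, adjusted p = 3.57e-05). Means of 53.5 CPM at both 30-36hpi and 48-54hpi were not called against MII oocytes (adjusted p = 0.924 and 0.932). It had 26.9, 32.8 and 39.2 CPM at 70-76hpi, a fall (-0.70, adjusted p = 0.00807) that was lost with total count scaling (adjusted p = 0.0746) and on leaving out 70-76hpi replicate 1 (adjusted p = 0.0845).

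Mtf1, which encodes the zinc sensor, was present in every library. It had 100.2, 120.1 and 109 CPM in MII oocytes, then 139.8, 141 and 132 CPM at 6-12hpi, 61.0, 77.4 and 59.0 CPM at 24-30hpi, 82.8, 94.3 and 95.7 CPM at 30-36hpi, 22.8, 23.1 and 24.8 CPM at 70-76hpi and 50.9, 61.3 and 51.1 CPM at 90-96hpi. The 5 groups from MII oocytes to 18-24hpi held means of 96.6 to 138 CPM, and no step among them was called. The lower level at 12-18hpi than at 6-12hpi (-0.26, adjusted p = 0.229), with no overlap, passed in a fit of only the 2 groups (-0.32, adjusted p = 0.0205). The largest changes were a fall at 70-76hpi over 48-54hpi (-1.49, SE 0.14, adjusted p = 1.36e-10) and a rise at 90-96hpi over 70-76hpi (1.21, SE 0.14, adjusted p = 1.76e-08), neither with overlap. Mt1, Mt2 and Slc30a1 were called higher in that last step too. Over the 10 groups as a whole, Mtf1 had a Pearson r of -0.751 with Mt1, -0.719 with Mt2 and 0.052 with Slc30a1, as a description. Smaller changes were called at 30-36hpi (0.47, adjusted p = 0.00462) and 48-54hpi (-0.46, adjusted p = 0.00374). The fall at 24-30hpi (-0.55, adjusted p = 0.00112), in the step in which Mt1, Mt2 and Slc30a1 rose, was lost with total count scaling (-0.15, adjusted p = 0.399). It was also lost without any of the 18-24hpi replicates 1, 2 and 3, and without 24-30hpi replicate 1 (-0.36 to -0.28, adjusted p = 0.0744 to 0.177). The 18-24hpi libraries were alike, at 92.8, 97.5 and 99.6 CPM, and why the value moved without any of them was not tested.

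The steps differed in how many of the 10 genes were called, and each count is set beside the share of all tested genes called. At 0-6hpi over MII 1 gene was higher and 1 lower, where 21.2% of all genes were called, 12.9% higher and 8.28% lower. At 6-12hpi over 0-6hpi the 10 genes had 1 and 1 (7.66%, of which 4.73% higher and 2.93% lower), and at 12-18hpi over 6-12hpi 3 and 0, counting Slc39a8 (13.2%, 7.11% higher and 6.09% lower). At 18-24hpi 3 were higher and 1 lower (33% of all genes, 18.1% and 14.9%), and at 24-30hpi 5 and 2 (45.4%, 21% and 24.4%). At 30-36hpi 2 were higher and 4 lower (49.9%, 21% and 29%), and at 48-54hpi 1 and 5 (62%, 28.7% and 33.3%). At 70-76hpi 2 were higher, Slc39a8 among them, and 5 lower (43.4%, 21.6% and 21.8%), and at 90-96hpi 4 and 2 (39.6%, 20.1% and 19.5%). Over MII oocytes, 12-18hpi had 4 higher, Slc39a8 among them, and 3 lower (43.9%, 27.9% and 15.9%), and 90-96hpi had 3 higher and 5 lower (81%, 42.6% and 38.4%). Both 24-30hpi and 70-76hpi had 7 of the 10 genes called. At 24-30hpi the median log2 fold change of the 9 genes other than Slc39a8 was 1.13, against -0.12 over all tested genes, and at 48-54hpi it was -0.46 against -0.19. Total count scaling in place of TMM factors put the median of all genes at 0.19, against 0.03, for 0-6hpi over MII, at 0.28, against -0.12, for 24-30hpi over 18-24hpi, at -0.67, against -0.19, for 48-54hpi over 30-36hpi, at 0.21, against 0.0, for 70-76hpi over 48-54hpi and at 0.79, against 0.27, for 90-96hpi over MII. Where that scaling moved the split of all calls by over 10 percentage points, the share called higher was 78.3%, against 60.9% with TMM factors, at 0-6hpi over MII, and 43.5%, against 53.8%, at 12-18hpi over 6-12hpi. It was 69.0%, against 46.3%, at 24-30hpi, 32.5%, against 46.2%, at 48-54hpi, 61.7%, against 49.8%, at 70-76hpi, and 33.3%, against 22.6%, in KO over pKO. With DESeq2 size factors it was 49.4% at 0-6hpi over MII. No called change of the 9 genes turned its direction under any scaling.

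**Figure D3:**
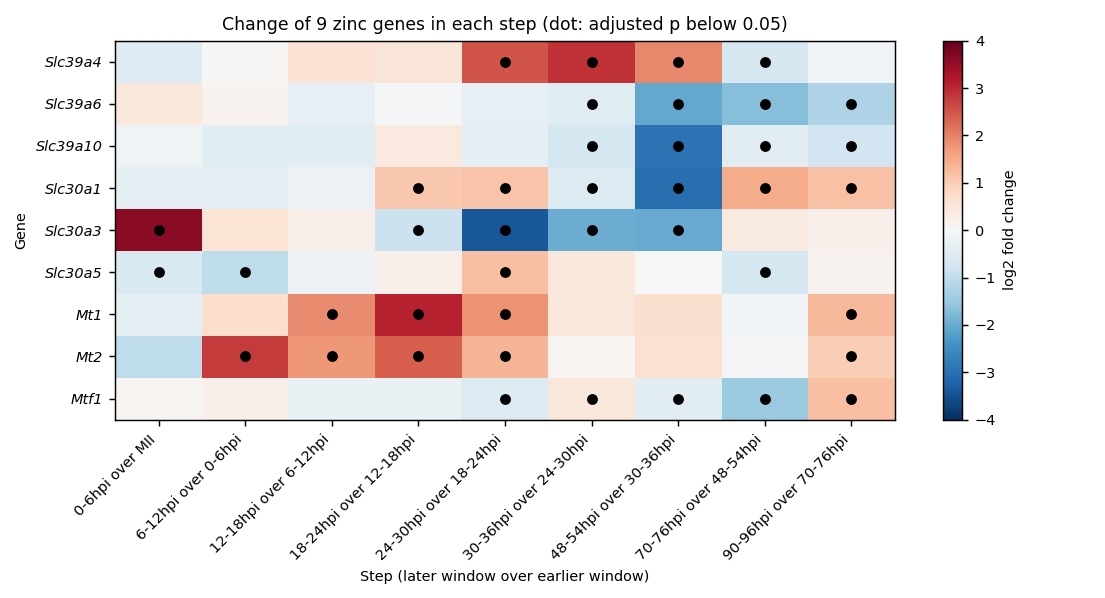
Log2 fold change (colour, red higher in the later window) of 9 zinc genes (rows; Slc39a8 is left out for its low counts) in the 9 steps between consecutive groups (columns); a dot marks an adjusted p below 0.05. The dots of Mt1 run from 12-18hpi to 24-30hpi and those of Mt2 from 6-12hpi to 24-30hpi, both with a further dot at 90-96hpi; those of Slc39a6 and Slc39a10 run from 30-36hpi on, and Slc30a3 has its only called rise at 0-6hpi (3.61).

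Likeness was taken among 9111 tested genes with at least 20 CPM in a group mean. Genes whose symbols are Gm with digits, hold Rik or -ps, or are bare Ensembl identifiers were left out. Those most like Mt1 over the 10 group means of log2(CPM + 1) were AC124426.3 (Pearson r = 0.9973), H2afz, a variant of histone H2A (0.9947), and H2afv, another (0.9938). Those most like Mt2 were H2afv (0.9891), Mt1 (0.9878) and Ormdl2 (0.9864). Slc30a3 was most like Ninj2 (0.9917), Pabpc1l, a poly(A)-binding protein of oocytes and embryos (0.9908), and Slco1a5 (0.9904). Ninj2 had 13.6 CPM in MII oocytes, 151 CPM at 12-18hpi and 18.0 CPM at 24-30hpi. These are descriptions over 10 group means from shared libraries.

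The other members of the families were 19 genes, of which 15 could be tested in the windows. Per length, the most abundant of them in MII oocytes were Mt4, at 58.7 ± 12.8 RPKM, Slc30a4, at 12.4 ± 1.56 RPKM, and Slc39a9, at 5.14 ± 1.24 RPKM. Slc30a4, which moves zinc into vesicles and in mice into milk, fell at 0-6hpi (33.4 ± 5.97 CPM, against 67.6 ± 8.54 CPM in MII oocytes, log2 fold change -1.01, adjusted p = 0.00177) and at 6-12hpi (13.9 ± 0.586 CPM, -1.27, adjusted p = 0.000502), as Slc30a5 did. Of the 15 tested, 0 were higher and 2 lower at 0-6hpi (12.9% of all genes higher and 8.28% lower), 0 and 1 at 6-12hpi (4.73% and 2.93%), and 0 and 2 at 12-18hpi (7.11% and 6.09%), where 4 had an unadjusted p below 0.05 in edgeR in each step. The counts were 4 higher and 1 lower at 18-24hpi (18.1% and 14.9% of all genes), 6 and 2 at 24-30hpi (21% and 24.4%), 5 and 3 at 30-36hpi (21% and 29%), and 5 and 3 at 48-54hpi (28.7% and 33.3%). They were 4 and 6 at 70-76hpi (21.6% and 21.8%) and 4 and 0 at 90-96hpi (20.1% and 19.5%), and 10 were higher and 3 lower at 90-96hpi over MII (42.6% and 38.4%).

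At 18-24hpi Slc39a1, a plasma membrane importer, rose to 6.86 ± 1.18 CPM, against 0.316 ± 0.19 CPM at 12-18hpi (4.41, adjusted p = 2.2e-07). Slc30a6, the partner of SLC30A5, rose to 12.5 ± 3.44 CPM, against 3.99 ± 1.16 CPM (1.64, adjusted p = 5.82e-06), and again to 32.6 ± 5.15 CPM at 24-30hpi (1.39, adjusted p = 9.27e-06). Slc39a9, a Golgi importer, fell and came back, at 5.16 ± 1.80 CPM at 12-18hpi and 34.8 ± 0.528 CPM at 24-30hpi. Its fall at 0-6hpi over MII (-0.80, adjusted p = 0.0172) was lost with total count scaling and without MII replicate 1 or 0-6hpi replicate 1 or 2 (adjusted p = 0.062 to 0.14). The fall at 12-18hpi over 6-12hpi (-0.91, adjusted p = 0.0229) was lost without 6-12hpi replicate 2 or 12-18hpi replicate 1 or 2 (adjusted p = 0.0514 to 0.179). The later windows brought Slc39a11 (20.3 ± 4.57 CPM at 30-36hpi, against 2.56 ± 2.08 CPM at 24-30hpi), Slc39a2 (51.5 ± 7.49 CPM at 48-54hpi, against 1.41 ± 1.36 CPM at 30-36hpi), Slc39a13 (11.8 ± 5.17 against 0.231 ± 0.143 CPM) and Slc39a7, an importer of the endoplasmic reticulum (25.2 ± 5.47 CPM at 70-76hpi, against 6.55 ± 0.982 CPM at 48-54hpi). Slc39a14, an importer of zinc and iron, was at 49.8 ± 22.4 CPM at 90-96hpi and 0.144 ± 0.0589 CPM in MII oocytes (8.30, SE 0.55, adjusted p = 5.8e-16). Without 24-30hpi replicate 2 the Slc39a11 rise at 30-36hpi was 3.88, against 3.00 with all libraries, the Slc39a2 rise was 6.05, against 5.17, without 30-36hpi replicate 1, and the Slc39a13 rise was 6.16 without 30-36hpi replicate 2 and 4.92 without 48-54hpi replicate 1, against 5.55. The reads of Slc39a11, Slc39a13 and Slc39a9 may include those of overlapping annotated genes, since the strand of counting is not known here, and the same holds for Slc30a4, Slc30a7, Slc30a1, Slc39a8 and Mtf1.

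Mt4, a metallothionein of squamous epithelia, lies in the same chromosome 8 cluster, with Mt3 between it and Mt2. Mt4 had 17.1, 9.99 and 10.8 CPM at 24-30hpi and 1.41, 2.32 and 2.30 CPM at 30-36hpi, a fall by 2.64 on the log2 scale (SE 0.35, adjusted p = 8.05e-08), when Mt1 had 372 to 378 CPM. It fell again at 48-54hpi (-2.26, adjusted p = 8.35e-05), to 3, 5 and 4 counts. Mt4 then rose at 70-76hpi (2.03, adjusted p = 0.000704) and at 90-96hpi over 70-76hpi (1.14, adjusted p = 0.0122), the step in which Mt1 and Mt2 were also called higher; this last call was lost in a fit of only the 2 groups and without 70-76hpi replicate 3 or 90-96hpi replicate 2 (adjusted p = 0.075 to 0.167). Mt3 had 0 CPM in 7 of the 10 groups and at most 0.0749 CPM as a group mean.

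**Figure D4:**
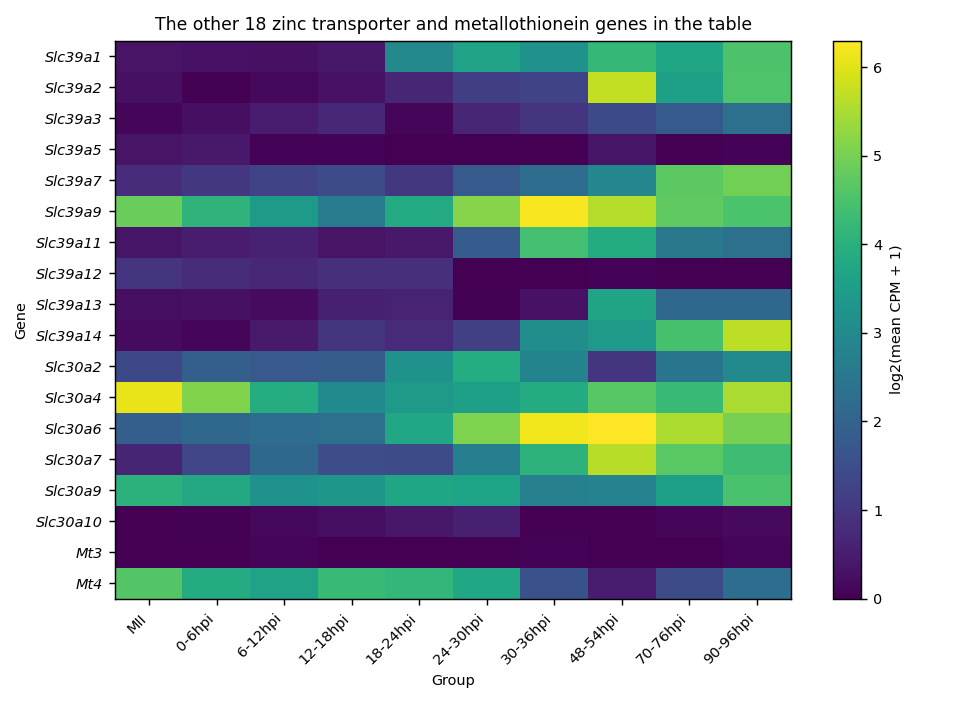
Level (colour, log2 of the mean CPM + 1 of 3 libraries) of the other 18 zinc transporter and metallothionein genes listed in the window table (rows) by group (columns, MII oocytes to 90-96hpi). Slc30a4 and Slc39a9 are bright in MII oocytes (67.6 and 27.9 CPM), Slc39a2 first at 48-54hpi (51.5 CPM), and Slc39a14 is brightest at 90-96hpi (49.8 CPM).

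The genotype libraries ask what loss of KLF17 does to the transcripts at the M2C stage. Klf17 itself did not follow the labels, with 673, 603 and 728 CPM in the libraries labelled KO, 359, 845 and 794 CPM in mKO, 812 and 1015 CPM in pKO, and 596, 805 and 746 CPM in ctrl (KO over ctrl log2 fold change -0.10, SE 0.30, adjusted p = 0.869). Which bases were deleted is not given in the sources used here, so counts over the whole gene may not show the deletion, and the groups are called by their labels. The library mKO replicate 1 had a mean correlation over genes of 0.9495 with the libraries labelled KO and 0.9264 with its own group, so counts of calls in mKO are given with and without it. The libraries mKO replicate 2 and 3 in turn had 0.9663 and 0.956 with ctrl, and 0.9349 and 0.9482 with their own group. Both pKO libraries were likewise nearer to ctrl (0.9674 and 0.9622) than to each other (0.9524). The libraries labelled KO held 5.93 to 11.4% mitochondrial counts and ctrl held 3.23 to 4.18%. Their 6 oocyte markers summed to 3527 to 4023 CPM, against 1910.0 to 2698 CPM in ctrl, and their 4 markers of the 2-cell embryo to 775 to 877 CPM, against 421 to 715 CPM in ctrl. Their 7 cumulus cell markers summed to 21.0 to 41.3 CPM, against 60.5 to 82.2 CPM in ctrl, with no marker at 0 in either group. In the windows the sum of these 7 markers was 1.10 to 2.97 CPM in MII oocytes and 37.9 to 44.2 CPM at 48-54hpi. It therefore changed with the stage of the embryos too. The part of these differences between libraries in the results that follow was not tested.

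Of the 10 genes, 1 was called in KO over ctrl, where 8.13% of all tested genes were called, 1.82% higher and 6.31% lower. Slc39a4 had 6.69, 12.5 and 13.6 CPM in the libraries labelled KO, 7.97, 71.0 and 40.7 CPM in mKO, 52.6 and 192 CPM in pKO, and 60.8, 139.7 and 99.5 CPM in ctrl. Each library labelled KO lay below each ctrl library (10.9 ± 3.70 and 100.0 ± 39.4 CPM, log2 fold change -3.19, SE 0.63, adjusted p = 0.0113). The size held without any 1 library, but the call was lost without KO replicate 1 (-2.91, adjusted p = 0.0566) or KO replicate 2 (-3.27, adjusted p = 0.0666), and without KO replicate 2 the test called 0 of all genes. Against pKO the log2 fold change was -3.48 (SE 0.67, adjusted p = 0.00554), -2.27 without pKO replicate 2 (adjusted p = 0.0774) and -4.14 without pKO replicate 1 (adjusted p = 0.00604).

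In mKO over ctrl the log2 fold change of Slc39a4 was -1.32 (SE 0.59, adjusted p = 0.645), -0.78 without mKO replicate 1 and -2.04 without mKO replicate 2, neither of which was called. KO over mKO gave -1.87 (SE 0.60, adjusted p = 0.233), and -2.38 without mKO replicate 1, which was then called (adjusted p = 0.0111). pKO over ctrl gave 0.29 (SE 0.64, adjusted p = 1.0) from libraries at 52.6 and 192 CPM, -0.93 without pKO replicate 2 and 0.94 without pKO replicate 1. In the windows, Slc39a4 had 12.3 ± 2.01 CPM at 24-30hpi and 91.9 ± 19.1 CPM at 30-36hpi; both tables were scaled separately, so these levels stand beside those of the genotypes without a test.

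The metallothioneins did not pass in KO over ctrl. Mt1 had 358, 372 and 189.6 CPM in the libraries labelled KO and 660.5, 461 and 414 CPM in ctrl, with no overlap (log2 fold change -0.74, SE 0.34, adjusted p = 0.182). Mt2 had 359, 357 and 250.1 CPM in the libraries labelled KO and 515, 332 and 320.0 CPM in ctrl, with overlap (-0.27, SE 0.32, adjusted p = 0.632). Against pKO, which had 955 and 472 CPM, Mt1 was called lower in the libraries labelled KO (-1.22, SE 0.38, adjusted p = 0.042). That call was lost with DESeq2 size factors and total count scaling (adjusted p = 0.0594 and 0.0504), and without any of the 3 libraries labelled KO or without pKO replicate 1 (-0.63 without the last, adjusted p = 0.0821 to 0.39).

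The other genes gave no call in KO over ctrl. Slc30a1 had 134, 124 and 119.9 CPM in the libraries labelled KO and 105, 109 and 109 CPM in ctrl (0.23, SE 0.30, adjusted p = 0.675), and Mtf1 had 115, 116 and 115 CPM in the libraries labelled KO and 106, 107 and 99.9 CPM in ctrl (0.14, SE 0.25, adjusted p = 0.759). In both the libraries did not overlap, by small margins. Slc39a10 (0.13, SE 0.28), Slc39a6 (0.35, SE 0.26) and Slc30a3 (0.20, SE 0.39) had adjusted p of 0.815, 0.429 and 0.79, and Slc30a5 was at -0.54 (SE 0.31, adjusted p = 0.293). Slc39a8 had at most 2.97 CPM in any genotype library. The median over the 9 genes other than Slc39a8 was 0.13, against 0.05 over all tested genes.

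KO over pKO called 2 of the 10 genes, both lower (12.5% of all tested genes, 2.83% higher and 9.67% lower), both named above, and DESeq2 also called 2. In mKO over ctrl edgeR called 0 of the 10 genes (0% of all genes), with 2 at an unadjusted p below 0.05 and 0 by DESeq2, and over all genes these numbers were 0, 1243 and 32. In pKO over ctrl it called 0 (0%), with 0 at an unadjusted p below 0.05 and 0 by DESeq2, and over all genes 0, 476 and 2. In KO over mKO it called 0 (0%), with 1 at an unadjusted p below 0.05, which is Slc39a4, and 0 by DESeq2, and over all genes 0, 2220 and 336. In mKO over pKO it called 0 (0%), with 1 at an unadjusted p below 0.05 and 0 by DESeq2, and over all genes 0, 1919 and 130. Without mKO replicate 1, mKO over ctrl and mKO over pKO each called 0 of the 10 genes and 0 of all genes, and KO over mKO called 1 of them and 1044 of all genes. Without mKO replicate 2, mKO over ctrl called 110 and mKO over pKO 483 of all genes, and each called 0 of the 10.

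Of the 14 other family genes tested in the genotypes, 1 was higher and 2 lower in KO over ctrl, where 8.13% of all genes were called, 1.82% higher and 6.31% lower. Slc30a6 had 17.9, 15.4 and 17.7 CPM in the libraries labelled KO and 73.3, 53.1 and 61.3 CPM in ctrl (log2 fold change -1.88, SE 0.37, adjusted p = 0.0113). That call was lost without KO replicate 2 (adjusted p = 0.0689). Slc30a7, a Golgi transporter, had 2.39, 4.02 and 3.03 CPM in the libraries labelled KO and 9.23, 11.1 and 9.61 CPM in ctrl (-1.66, SE 0.47, adjusted p = 0.039). Slc30a4 had 15.0, 35.1 and 33.2 CPM in the libraries labelled KO and 11.9, 7.56 and 4.38 CPM in ctrl (1.81, SE 0.50, adjusted p = 0.0349). None of the 3 overlapped between groups. The call of Slc30a7 was lost with DESeq2 size factors and without any 1 of the 6 libraries (adjusted p = 0.0519 to 0.134), and that of Slc30a4 without ctrl replicate 2 or 3 or KO replicate 2 or 3 (adjusted p = 0.0857 to 0.153). KO over pKO had 0 of the 14 higher and 3 lower (12.5% of all genes called, 2.83% higher and 9.67% lower), Slc30a7 (-2.53), Slc30a6 (-1.95) and Slc39a3 (-3.36), of which Slc30a7 and Slc39a3 were lost without pKO replicate 2 (-1.94 and -2.44, adjusted p = 0.0882 and 0.237). The call of Slc39a3, a plasma membrane importer, was also lost without KO replicate 1 or 2 (adjusted p = 0.0722 and 0.0897).

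**Figure D5:**
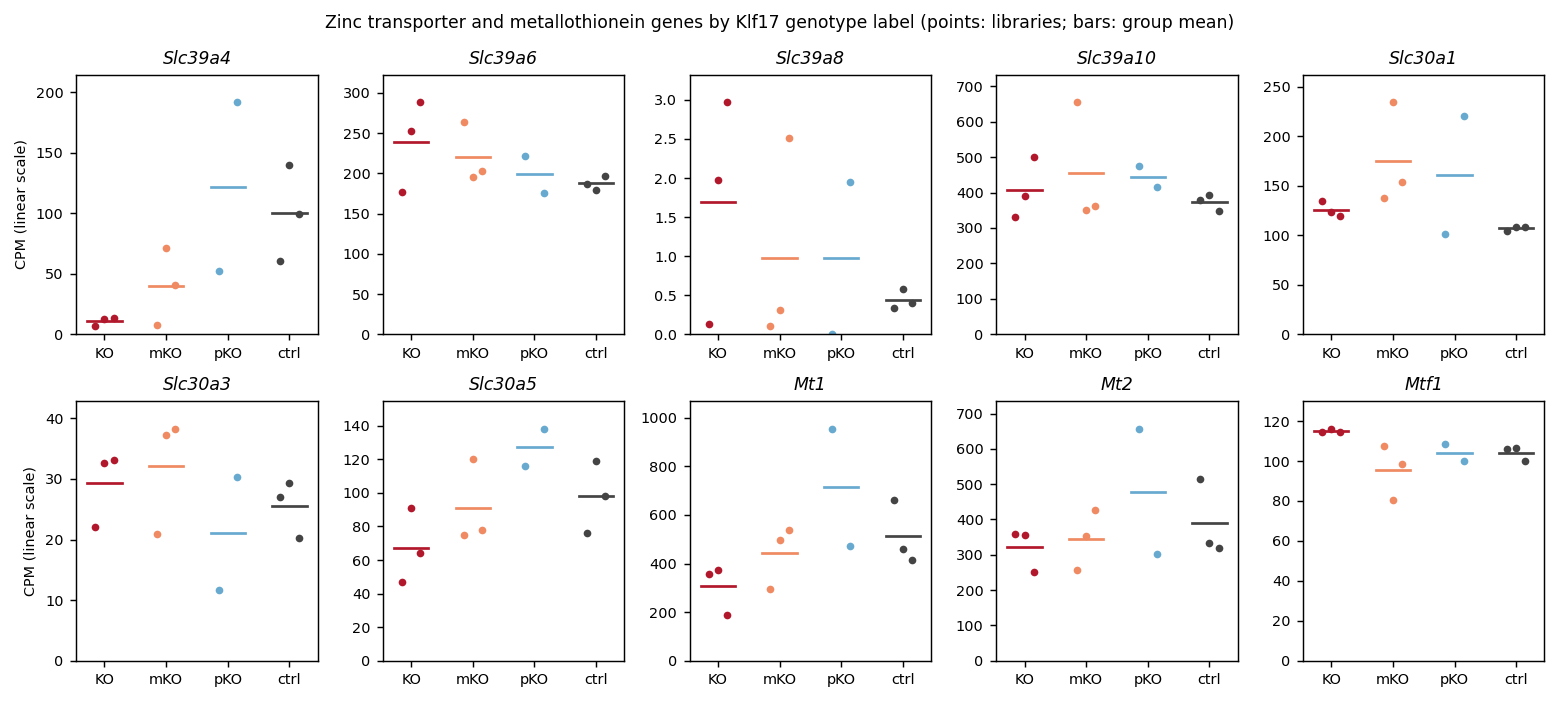
Level of the 10 genes (CPM, linear scale from 0) in the libraries labelled KO, mKO, pKO and ctrl (x axis); points are single libraries (3, 3, 2 and 3) and bars are group means. The 3 Slc39a4 libraries labelled KO sit between 6.69 and 13.6 CPM, below the 60.8 to 139.7 CPM of ctrl, while Slc39a6, Slc39a10, Slc30a3 and Mt2 overlap between KO and ctrl.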

How the data were processed

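Counts per gene were taken as the authors deposited them, for 30 libraries of labelling windows and 11 libraries of Klf17 genotypes. The column that the authors deposited for 90-96hpi replicate 3 was treated like an estimated count and rounded, because of a fraction in 1 damaged record that was left out; its other values were whole. Gene lengths are the deposited ones. Trim Galore 0.6.10, STAR 2.7.10a, SAMtools 1.12 and the build mm10/GRCm38 are named in the submitters' processing notes; the counting tool, its strand setting and any parting of reads by T-to-C conversion are not given in the sources used here. Deposited tables of other embryo numbers and the chromatin libraries were not used here.

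Each table was fitted alone over all its groups with edgeR 4.0.16 (quasi-likelihood test, TMM factors, R 4.3.3), after filterByExpr (minimum count 10, minimum total 15), and p-values were adjusted by Benjamini-Hochberg over all genes tested. Each SE was obtained as the absolute log2 fold change over the root of its F statistic. CPM use TMM-scaled totals and RPKM divide CPM by kilobases of gene length. The alternatives were DESeq2 1.42.0 and its size factors, total count scaling, no filter, a block for replicate number, fits restricted to the 2 groups compared, and leaving out each library. The scripts were tested on simulated data. The 10 genes and all lists were chosen with earlier results of these data known. All 10 genes are named; other family genes are named where called, at most the 3 of smallest adjusted p per comparison, beside those said to be chosen later; for Mt1, Mt2 and Slc30a3 the 3 genes of highest correlation are named.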

Additional observations from a re-analysis of the deposited data

How the results depend on the processing

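A fit of only the 2 groups called 4 of the 10 genes and 4443 of all genes at 0-6hpi over MII, and 5 of the 10 at 12-18hpi over 6-12hpi. It called 3577 of all genes and 3 other family genes at 6-12hpi over 0-6hpi, and 3628 of all genes at 12-18hpi over 6-12hpi. At 12-18hpi over MII it called 6424 of all genes and 3 other family genes, and in KO over ctrl 3166 and 7. DESeq2 called 1751 of all genes and 2 other family genes at 6-12hpi over 0-6hpi, and 2592 and 5 in KO over ctrl. It called 32 genes in mKO over ctrl, 2 in pKO over ctrl and 130 in mKO over pKO. In KO over mKO it called 336 of all genes and 3 other family genes, and in KO over pKO 3521 and 6. With no low-count filter the counts were 2237 genes and 6 other family genes in KO over ctrl, 47 genes in mKO over ctrl, 4 in pKO over ctrl, 543 genes, 1 of the 10 and 1 other family gene in KO over mKO, and 136 genes and 1 of the 10 in mKO over pKO. Total count scaling called 3509 of all genes and 1 other family gene at 0-6hpi over MII. Both it and DESeq2 size factors called 1 of the 10 in KO over pKO, with 1902 and 1946 of all genes. The cause was not tested.

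The log2 fold change of Slc30a5, 48-54hpi over 30-36hpi, at 0.0, was 0.021 with no filter and -0.35 to 0.16 with each library left out in turn. With total count scaling it was -0.48, a fall that was called (adjusted p = 0.0491). On leaving out each library, the log2 fold change of Klf17, KO over ctrl, was -0.21 to 0.0012, the log2 fold change of Klf17, mKO over ctrl, was -0.31 to 0.26, and the log2 fold change of Slc39a4, pKO over ctrl, was -0.93 to 0.94. These 4 signs turned without 30-36hpi replicate 2, KO replicate 2, mKO replicate 1 and pKO replicate 2, and none of the values with a library left out was called. Of 153 fold changes of the 10 genes without Slc39a8, 77 were called in no fit, and 37 of these changed sign in at least 1 alternative, the largest being 0.59 with all libraries (Slc30a1, pKO over ctrl).

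Replicate numbers were not taken as pairs: same-numbered libraries deviated together with a median r of 0.004 in the windows, where 4 of 135 pairs passed 0.1, and 0.086 in the genotypes, where 6 of 15 did; 15 of 30 and 9 of 11 libraries correlated best with their own number. With the replicate block, KO over ctrl called 2064 of all genes. KO over pKO called 2695 of all genes, 5 other family genes and 3 of the 10, Slc30a5 being added (-0.94, adjusted p = 0.0408). The log2 fold change of Slc30a5, 48-54hpi over 30-36hpi, was 0.014 with that block.

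With each library left out in turn, counts that moved by over 1.5 times had these ranges. The number of all genes called was 1201 to 1779 in 12-18hpi over 6-12hpi, 739 to 871 in 6-12hpi over 0-6hpi, 0 to 892 in KO over ctrl, 0 to 1044 in KO over mKO, 500 to 1180 in KO over pKO, 0 to 110 in mKO over ctrl and 0 to 483 in mKO over pKO. The number of the 10 genes called was 1 to 2 in 0-6hpi over MII, 1 to 2 in 12-18hpi over 6-12hpi, 0 to 1 in KO over ctrl, 0 to 1 in KO over mKO and 1 in each KO over pKO fit. The number of other family genes called was 1 to 2 in 0-6hpi over MII, 0 to 2 in 12-18hpi over 6-12hpi, 3 to 5 in 12-18hpi over MII, 1 to 2 in 6-12hpi over 0-6hpi, 0 to 2 in KO over ctrl, 0 to 3 in KO over mKO and 1 to 3 in KO over pKO. The number of all genes called moved less in 0-6hpi over MII, at 2631 to 2901, and in 12-18hpi over MII, at 6234 to 6503. Depth limits Slc39a8 and the metallothioneins up to 12-18hpi, at few counts per library.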
